A study of Mus musculus with 18 samples.

Results

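Kdm3a knockout clone 2 (KO2) of the mouse pancreatic tumor line 6694c2 was compared with Kdm3a knockout clone 1 (KO1) of the same line. Both sides are labelled as knockouts of the same gene, so the comparison measures how far 2 such clones differ from each other. The 3 KO2 and 3 KO1 libraries are 6 of the 18 in the series. Of 24493 gene symbols, 13264 averaged at least 1 TPM (transcript abundance scaled to the same total in every library) in these 6 libraries and were compared. RNA came from tumor cells (strain C57BL/6) that were sorted after growing as implants under the skin, with no treatment. The groups used are KO2 with 3 libraries, KO1 with 3 libraries and the parental line without the knockout (WT) with 3 libraries, all of 6694c2. Each knockout group is 1 clone, sequenced as 3 libraries. The labels do not say which marker was used for the sort, how Kdm3a was disrupted, or whether the libraries are separate animals. The p-values therefore measure only the spread between libraries of a group, estimated over all 18, and that spread may be technical.

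KDM3A is a histone demethylase that removes methyl groups from lysine 9 of histone H3, a mark of silent chromatin. Its gene is also a known target of the hypoxia-inducible transcription factors. A tumor line is a mixture of cells that can differ in chromosome content, differentiation state and metabolism, and a clone carries what its founding cell had. Pancreatic carcinoma cells are known to range from a classical state, with gastric mucins and endodermal transcription factors, to a basal-like state in which those genes are low.

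The libraries differed in the RNA of other cell types, and 2 of them stood apart. A macrophage index (the mean log2(TPM + 1) of 10 macrophage genes such as C1qa and Csf1r) was 3.84, 3.91 and 6.51 in KO2 libraries 1, 2 and 3, against 7.06, 6.61 and 6.74 in KO1 libraries 1, 2 and 3. The WT libraries had 4.16, 5.63 and 2.82. KO2 library 3 was therefore close to the KO1 libraries in this index and far from the other KO2 libraries, and the difference between the clones was -2.05 (exact two-sided permutation test, p = 0.1, the smallest that 3 against 3 allows). KO1 library 1 stood apart by its summed endothelial markers, at 496.1 TPM against 112 and 103 TPM in KO1 libraries 2 and 3. KO2 libraries 1 and 2 had the smallest median absolute difference of any pair of one group, though a pair of the other line correlated as closely (r = 0.988, against 0.987). Over abundant genes that difference was 0.04 on the log2 scale, against 0.08 to 0.33 in the other 17 pairs, and without read counts it cannot be tested whether this is within sampling noise, so they may be 1 library deposited under both replicate numbers. KO2 would then have 2 libraries, and the fit that averages them applies. Of 14 epithelial markers of the tumor cells, 13 averaged at least 1 TPM in the 6 libraries, and the abundant ones carried the sum while Epcam was low in both clones. They summed to 6235 to 7947 TPM in KO2, 5826 to 6457 TPM in KO1 and 7249 to 8939 TPM in WT.

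**Figure D1:**
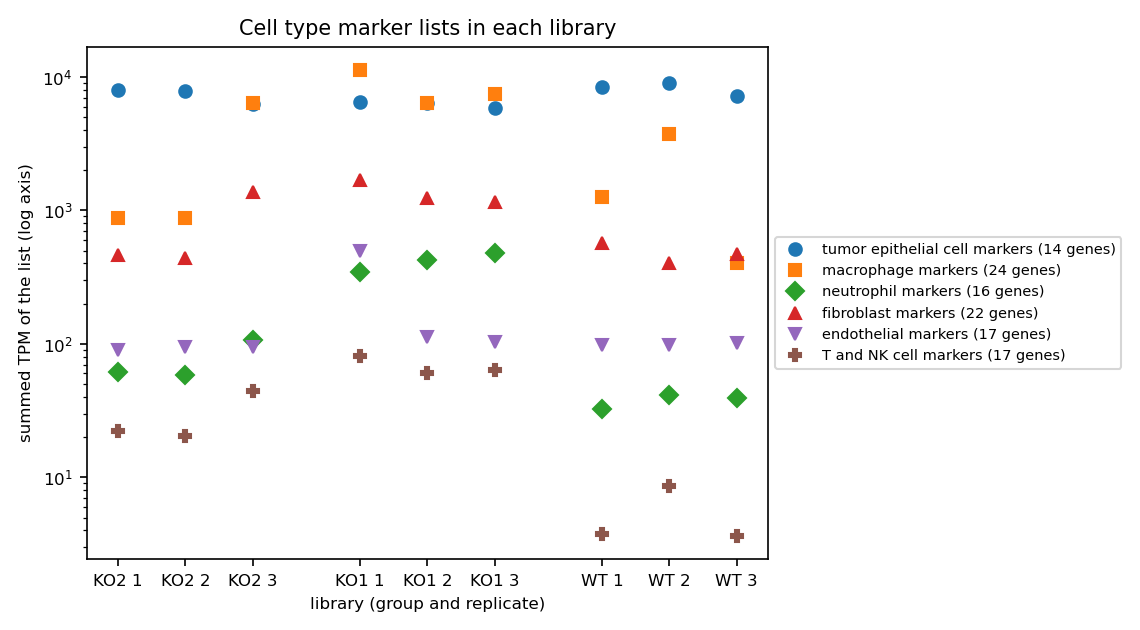
Summed TPM (log axis) of 6 cell type marker lists in each library of 6694c2, with KO2 at the left, KO1 in the middle and WT at the right, 1 point per list and library. Macrophage and fibroblast markers of KO2 library 3 lie at the KO1 level, while its neutrophil markers (108 TPM) lie below the 346 to 480 TPM of the KO1 libraries.

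Genes were tested with limma on log2(TPM + 1) over all 18 libraries, and a gene is called higher or lower in KO2 where the Benjamini-Hochberg adjusted p was under 0.05. Of the 13264 genes, 1339 (10.1%) passed, 728 (5.49%) higher and 611 (4.61%) lower in KO2. With median-of-ratios scaling the split turned to 509 higher and 654 lower. The number depended on which libraries entered: 402 and 394 genes passed without KO2 library 1 or 2, 1969 without KO2 library 3, 727 and 612 without KO1 library 2 or 3. Because of this, each gene was also read in 3 further fits: with the macrophage index as a covariate (352 passed), without both KO1 library 1 and KO2 library 3 (1653 passed), and with KO2 libraries 1 and 2 averaged to 1 library (392 passed, the number that applies if they are 1 library). The last of these was chosen after seeing the data. The fit without KO1 library 1 and KO2 library 3 keeps only KO2 libraries 1 and 2. If these are 1 library, it counts that library as 2 and its 1653 calls are too many. The same holds for the 1969 without KO2 library 3. Both fits also drop the KO2 library nearest to KO1 in the macrophage index. A set of 270 genes (2.04%) passed in the same direction in all 4 fits, 136 (1.03%) higher and 134 (1.01%) lower in KO2. Of them, 261 also passed in each of the 6 fits that left out 1 library. Those 6 fits largely repeat the 4 that selected the set, so this is not separate support. The 270 are called the genes that differed in all 4 fits, and they lead the account below. In bulk RNA, fewer cells of a type and less RNA per cell cannot be told apart.

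Kdm3a itself did not separate the clones, and its transcript was still measured in both. Its level was 28.8, 30.2 and 25.2 TPM in KO2 and 26.3, 26.4 and 29.8 TPM in KO1, against 39.9, 38.9 and 67.7 TPM in WT. The knockout groups overlap, and both lie below every WT library. The difference between KO2 and KO1 was 0.03 ± 0.21 (log2, SE; limma adjusted p = 0.954), and that between each clone and WT was -0.73 in KO2 (adjusted p = 0.028) and -0.76 in KO1 (adjusted p = 0.017). A gene-level TPM does not show which exons the reads cover, so the loss of the gene rests on the labels. Of 20 genes that write, read or erase H3K9 methylation, 1 was higher in KO2 and none was lower, and the median difference was 0.14 beside 0.07 over all genes. The one was Uhrf1, which binds hemimethylated DNA and methylated H3K9 and brings in the maintenance DNA methyltransferase. Uhrf1 had 66.8, 70.2 and 49.0 TPM in KO2, 35.4, 33.2 and 31.7 TPM in KO1 and 52.1, 44.7 and 45.5 TPM in WT, and it differed in all 4 fits (0.86 ± 0.14, adjusted p = 0.00286). The close relative Kdm3b (adjusted p = 0.0649) had 31.8, 31.5 and 33.6 TPM in KO2 and 27.9, 26.4 and 25.4 TPM in KO1.

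Several genes of gastric and mucus-producing epithelium were higher in KO2, among a list of which most members did not pass. Muc5ac, the gel-forming mucin of the stomach surface, had 28.0, 27.6 and 35.5 TPM in KO2, against 15.8, 4.45 and 5.46 TPM in KO1. All KO2 libraries lie above all KO1 libraries, and WT was lower still, at 4.13, 3.82 and 2.67 TPM. The difference was 1.89 ± 0.37 (adjusted p = 0.00654). Muc5b, a mucin gene that lies next to Muc5ac on chromosome 7 (chr7:141839070-141873084, plus strand, mm10), had 16.1, 15.6 and 10.5 TPM in KO2, 4.85, 2.67 and 2.71 TPM in KO1 and 1.17, 0.93 and 1.999 TPM in WT. This was again a separation without overlap (1.79 ± 0.24, adjusted p = 0.000854). Tff2, the trefoil peptide secreted with gastric mucus, had 468, 463 and 516 TPM in KO2, 325, 165 and 181 TPM in KO1 and 338, 381 and 316 TPM in WT (1.17 ± 0.25, adjusted p = 0.00966). Ctse, a gastric aspartic protease, had 308, 299 and 249.1 TPM in KO2, 205, 132 and 138 TPM in KO1 and 400.2, 327 and 325 TPM in WT (0.87 ± 0.16, adjusted p = 0.00389). For Tff2 and Ctse it was KO1 that lay lowest, while for both mucins KO2 lay highest.

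The list of classical subtype and gastric genes had 19 tested members, of which 5 were higher and 2 lower in KO2, with a median difference of 0.34 beside 0.07 over all genes. Of the 5, Muc5ac, Tff2, Ctse and Gata6 differed in all 4 fits, and Hnf4a (0.47) did not with the covariate. Gata6, the endodermal transcription factor that marks the classical state, had 53.6, 52.0 and 58.1 TPM in KO2, 40.6, 34.0 and 32.2 TPM in KO1 and 45.1, 41.9 and 46.3 TPM in WT (0.61 ± 0.09, adjusted p = 0.00163). The 2 lower members, Agr2 (-1.63) and Gkn1 (-1.42), were at most 10.1 TPM and 7.29 TPM, both in KO1 library 1, and neither passed with the covariate. Tff1 overlapped between the clones, with 516, 467 and 1063 TPM in KO2 and 548, 171 and 219 TPM in KO1.

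Other endodermal and epithelial genes also differed in all 4 fits; they were picked after their values were seen. Pdx1, the pancreatic and duodenal homeobox factor, had 65.8, 65.8 and 68.0 TPM in KO2, 43.9, 37.6 and 36.6 TPM in KO1 and 63.5, 57.5 and 46.1 TPM in WT (0.75 ± 0.13, adjusted p = 0.00336). Gata5, another endodermal GATA factor, averaged 41.2 ± 3.6 TPM in KO2 and 24.9 ± 4.7 TPM in KO1 (SD, n = 3 each). Hhex, a homeobox factor of foregut development, averaged 85.4 ± 6.6 TPM in KO2 and 52.0 ± 4.7 TPM in KO1. Vil1, the actin-bundling protein of microvilli, had 26.6, 25.5 and 20.3 TPM in KO2, 15.3, 9.58 and 8.26 TPM in KO1 and 28.8, 27.2 and 21.1 TPM in WT (1.10 ± 0.22, adjusted p = 0.00772). Anks4b, a brush border scaffold protein, was 1.07 ± 0.19 higher (adjusted p = 0.00364). Msln, the surface protein mesothelin of pancreatic carcinoma, had 283, 289 and 264 TPM in KO2 and 238, 158 and 167 TPM in KO1 (0.59 ± 0.12, adjusted p = 0.00843). In all of these the KO2 libraries lay above the KO1 libraries. Msln belongs to the tumor epithelial markers, of which 1 of 13 tested was higher and 2 were lower in KO2. In all 4 fits 1 of these markers, Msln, was higher and 1 was lower.

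Most genes of the general epithelial state did not pass. Of 15 genes of the epithelial state, 1 was higher (Krt20, 0.80) and 3 were lower (Epcam, Spint1 and Marveld2), and none of the 4 passed with the covariate. Epcam, the epithelial adhesion molecule, was low in both clones: 1.118, 0.825 and 0.745 TPM in KO2 and 7.56, 3.61 and 2.74 TPM in KO1, against 21.6, 28.3 and 25.2 TPM in WT. Its difference between the clones was -1.48 ± 0.30 (adjusted p = 0.00774; 0.0695 with the covariate). Of 17 mesenchymal genes 1 was higher and 2 lower, with a median of -0.11.

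**Figure D2:**
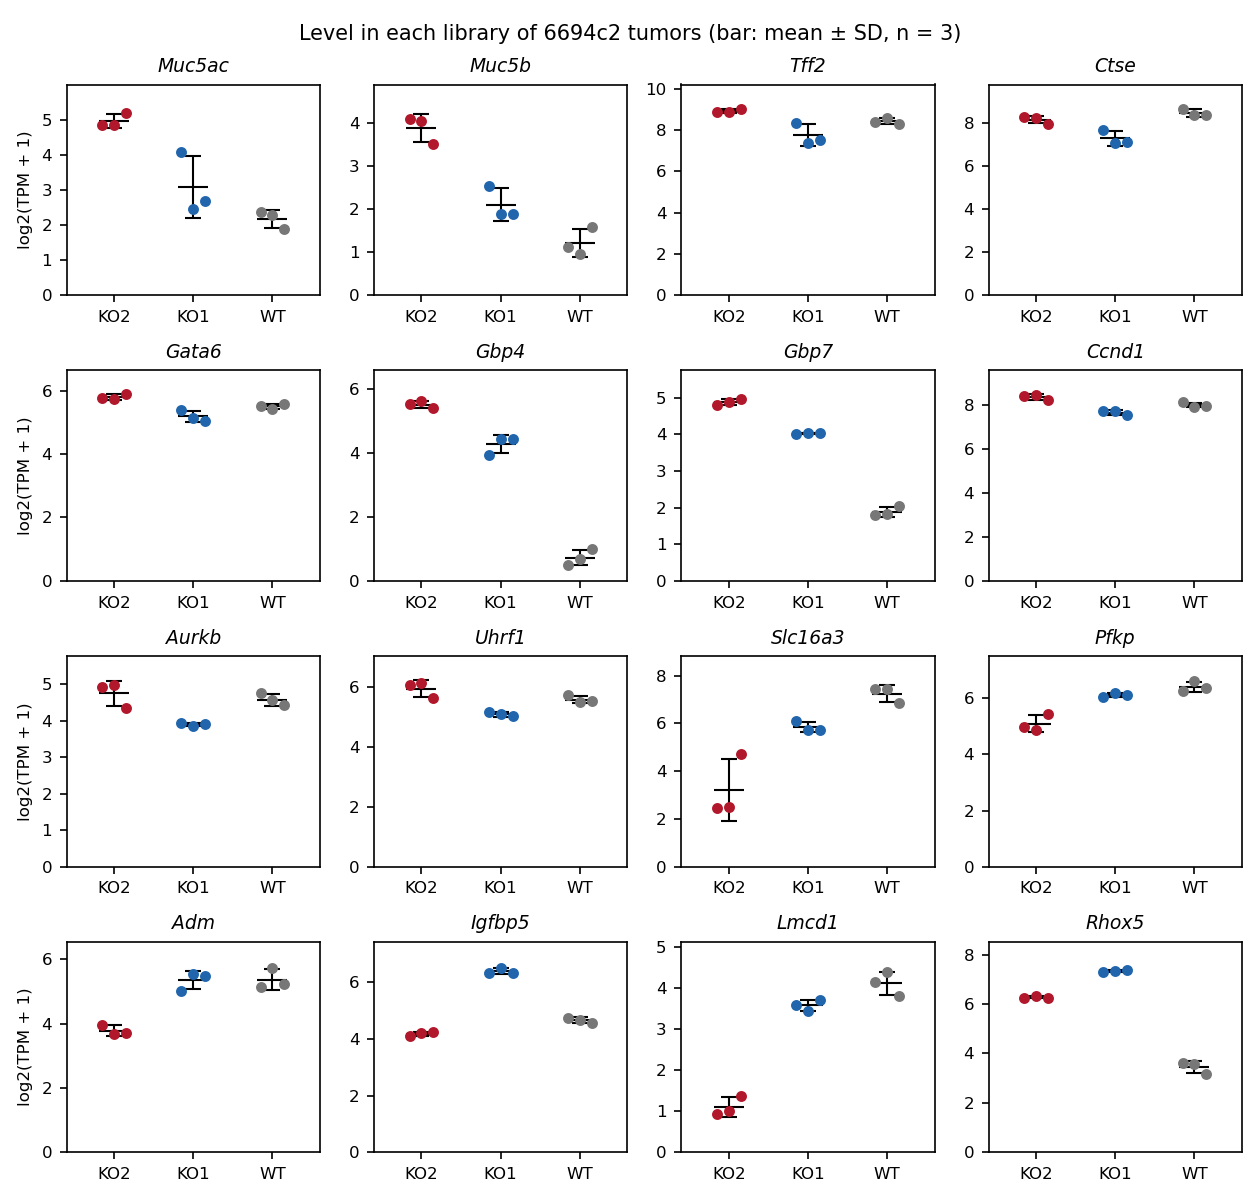
Level of 16 genes as log2(TPM + 1) in each library (points), with KO2 at the left, KO1 in the middle and WT at the right of each panel and the mean ± SD (n = 3) in black. Muc5ac, Muc5b, Gbp4 and Gbp7 fall in steps across KO2, KO1 and WT, whereas Slc16a3, Lmcd1 and Adm are lowest in KO2; Igfbp5 is highest in KO1, and Rhox5 is low in WT.

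Of the interferon gamma response genes 11 of 22 were higher in KO2, and the promoters of some of them carry the known binding motifs. Interferon gamma is known to induce genes through GAS motifs in their promoters and, by way of the induced factor IRF1, through ISRE motifs. None of the 22 was lower, and the list had a median of 0.77 beside 0.07 over all genes. In 20 of the 22 every KO2 library lay above every KO1 library, against 25.3% of all genes. Only Gbp4 and Gbp7 differed in all 4 fits: 4 of the list passed with the covariate, 2 without the libraries that stood apart, and 4 with KO2 libraries 1 and 2 as 1 library. The promoter stretches below are shown for genes of the list that were called higher. They are from RefSeq on GRCm38 (mm10), read 5′ to 3′ on the strand of the gene, with matches to the GAS pattern TTCNNNGAA and the ISRE core TTTCNNTTTC (on either strand) in capitals.

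Gbp7 (chr3:142530218-142530304, plus strand): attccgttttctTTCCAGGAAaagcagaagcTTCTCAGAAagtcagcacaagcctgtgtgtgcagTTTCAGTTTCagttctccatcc
Igtp (chr11:58199499-58199543, plus strand): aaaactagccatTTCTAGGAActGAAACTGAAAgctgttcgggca
Irgm2 (chr11:58214890-58214934, plus strand): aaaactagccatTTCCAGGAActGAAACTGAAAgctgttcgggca
Tgtp1 (chr11:48992302-48992346, minus strand): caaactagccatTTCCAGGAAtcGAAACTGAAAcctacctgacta
Gbp2 (chr3:142620592-142620625, plus strand): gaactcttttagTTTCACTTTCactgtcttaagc

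Igtp, Irgm2 and Tgtp1, 3 immunity-related GTPases, share 1 arrangement, a GAS match followed after 2 bases by an ISRE match on the other strand. Tgtp2, which was not called, holds the same arrangement. Gbp7 holds 2 GAS matches and 1 ISRE match, and Gbp2 an ISRE match alone. No GAS match overlaps an ISRE match in these promoters. Of the 11 called genes 9 had a RefSeq promoter of 300 bases; 4 of the 9 held a GAS match and 7 held an ISRE match. Of 6 matched list members that were not called, 4 held a GAS and 4 held an ISRE match. Over 32544 distinct promoters the shares were 8.33% and 3.45%. Both motifs thus occurred in called and in uncalled members of the list.

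Gbp4, a guanylate-binding protein of cell-autonomous defence, had 44.7, 47.8 and 40.8 TPM in KO2, 14.3, 20.6 and 20.4 TPM in KO1 and 0.43, 0.61 and 0.98 TPM in WT (1.24 ± 0.18, adjusted p = 0.00142). Gbp7 had 26.9, 28.7 and 30.4 TPM in KO2, 15.2, 15.4 and 15.5 TPM in KO1 and 2.45, 2.57 and 3.10 TPM in WT (0.86 ± 0.15, adjusted p = 0.00389). Both clones thus lay above WT, with KO2 above KO1. Guanylate-binding proteins are a family of similar sequences, so reads may be split among them. Cxcl9, a chemokine that attracts T cells, had 139, 142 and 127 TPM in KO2, 38.1, 50.5 and 51.1 TPM in KO1 and 0.70, 1.93 and 2.13 TPM in WT. Its groups do not overlap and its difference was 1.54 ± 0.39 (adjusted p = 0.0217), but the adjusted p was 0.182 with the covariate. The call was lost without any 1 of KO2 libraries 1 and 2 or any 1 of the 3 KO1 libraries. Tgtp1 (0.99), Igtp (0.69), Irgm2 (0.44), Gbp2 (1.05), Gbp3 (0.91), Gbp6 (1.04), Ubd (0.90) and Socs1 (0.69), the feedback inhibitor of JAK kinases, passed in the fit over all libraries and not in all 4. Tgtp1 has a near-identical copy, Tgtp2 (0.64, adjusted p = 0.278), and reads of the pair may be exchanged.

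Members of the list that encode interferon regulatory factors did not pass. Irf1 had 116, 122 and 118 TPM in KO2 and 100.6, 95.7 and 106 TPM in KO1 (adjusted p = 0.164). Irf8, which macrophages also express, was the 1 list member below all KO1 libraries, with 15.3, 15.6 and 19.8 TPM in KO2 and 37.9, 36.8 and 38.7 TPM in KO1 (adjusted p = 0.15). Genes that respond mainly to type I interferon did not share the direction in the fit over all libraries. None of 29 was higher, 2 were lower (Rsad2 and Cmpk2, neither in all 4 fits), and the median was -0.00. With the covariate 1 was higher and none lower, and the median was 0.19 beside -0.00 over all genes. None of 20 genes of MHC class I presentation passed in either direction (median 0.25), although 11 of them lay above all KO1 libraries. With the covariate 2 of the 20 were higher and the median was 0.46. None of 9 genes of MHC class II presentation passed, none lay above all KO1 libraries, and the median was -0.38. With the covariate again none of the 9 passed and their median was 0.65. H2-K1, a class I heavy chain, had 2525, 2533 and 2848 TPM in KO2, 2381, 2038 and 2159 TPM in KO1 and 273, 464 and 232 TPM in WT. Apol10b and Apol6, apolipoprotein L family genes on chromosome 15, differed in all 4 fits. Apol10b had 16.1, 14.9 and 13.6 TPM in KO2, 4.67, 6.39 and 6.17 TPM in KO1 and 0.45, 0.37 and 0.17 TPM in WT (1.24 ± 0.19, adjusted p = 0.00176). Apol6 was 1.32 ± 0.24 higher in KO2 (adjusted p = 0.00389).

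**Figure D3:**
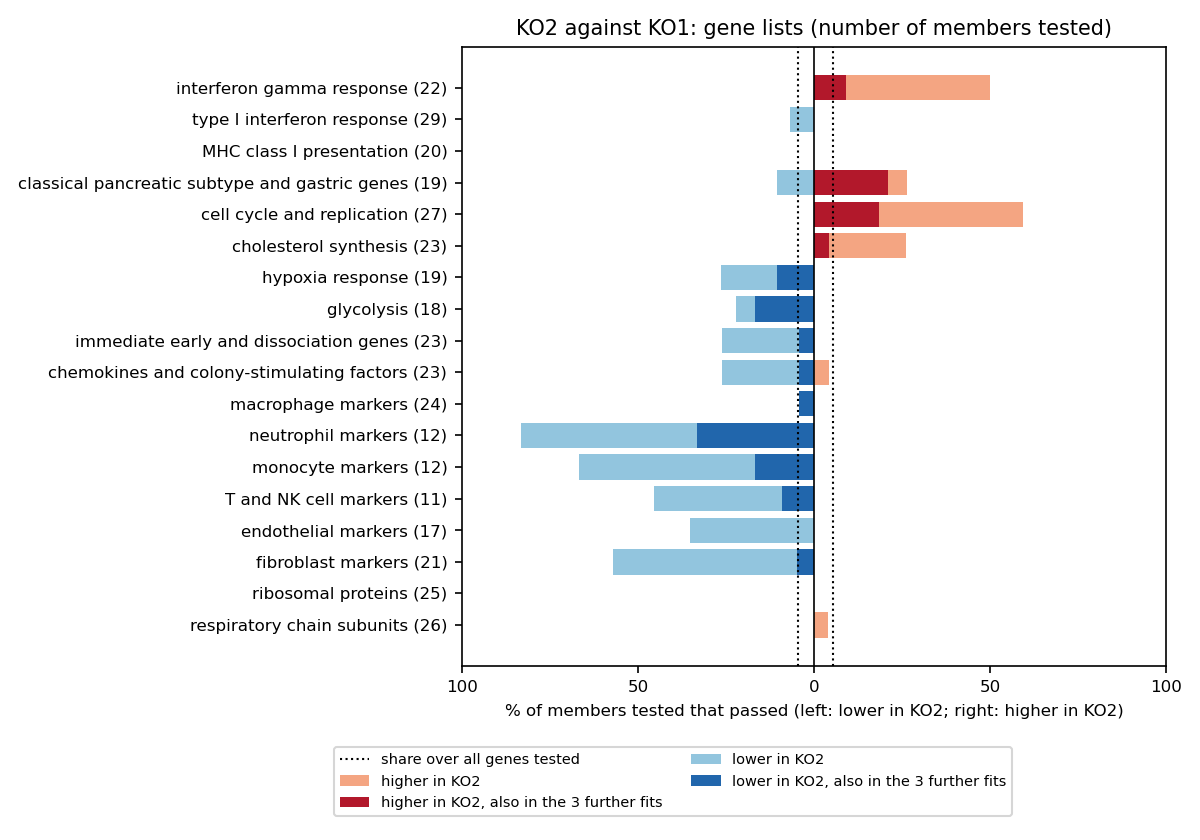
Share of the tested members of 18 gene lists (number tested in brackets) that were lower in KO2 (left of 0) or higher in KO2 (right of 0), in percent; dark parts are members that differed in all 4 fits and dotted lines mark the share over all 13264 genes. Cell cycle and interferon gamma genes extend furthest to the right (16 of 27 and 11 of 22), neutrophil and monocyte markers furthest to the left (10 of 12 and 8 of 12).

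Cell cycle genes were higher in KO2. Of 27 genes of division and DNA replication, 16 were higher and none lower, with a median of 0.63, and in 26 of the 27 the KO2 libraries lay above the KO1 libraries. With the covariate 5 passed and the median was 0.38. The 5 were the mitotic genes Bub1b, Aurka, Aurkb, Plk1 and Cdc20, which differed in all 4 fits. Aurkb, a kinase of the chromosomal passenger complex, had 29.2, 30.8 and 19.6 TPM in KO2, 14.3, 13.5 and 14.1 TPM in KO1 and 26.1, 22.6 and 20.6 TPM in WT (0.85 ± 0.15, adjusted p = 0.00365). Bub1b, a spindle checkpoint kinase, had 33.3, 35.1 and 27.5 TPM in KO2, 20.3, 17.3 and 16.1 TPM in KO1 and 29.8, 26.0 and 29.5 TPM in WT (0.80 ± 0.11, adjusted p = 0.00114). For both, WT lay near KO2 and KO1 was the low group. Mki67 (0.93) and Top2a (1.11), usual proliferation markers, passed in the fit over all libraries and in that without both libraries that stood apart. With the covariate their adjusted p was 0.196 and 0.365. With KO2 libraries 1 and 2 averaged it was 0.0928 and 0.171.

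Ccnd1, the cyclin of the G1 phase, had 347, 357 and 299.8 TPM in KO2, 215, 210.5 and 185 TPM in KO1 and 281, 244 and 254 TPM in WT (0.71 ± 0.09, adjusted p = 0.000459). WT lay between the clones. Foxm1, a transcription factor of mitotic genes, had 50.05, 48.2 and 43.9 TPM in KO2, 30.4, 29.4 and 26.7 TPM in KO1 and 49.5, 46.5 and 49.1 TPM in WT (0.70 ± 0.10, adjusted p = 0.00117). Cdc45, a helicase component of the replication fork, had 19.4, 21.3 and 18.2 TPM in KO2 and 10.02, 10.3 and 8.55 TPM in KO1 (0.96 ± 0.14, adjusted p = 0.00114). Foxm1, Cdc45 and Mst1r, the receptor kinase for macrophage-stimulating protein (0.84 ± 0.11, adjusted p = 0.000626), were picked after their values were seen. Of 17 output genes of ERK signalling, 3 were higher and 1 lower, and Ccnd1 alone differed in all 4 fits. Of 11 EGFR family receptors and ligands 1 was higher: the ligand Tgfa, with 62.1, 60.4 and 49.1 TPM in KO2 and 37.7, 39.7 and 36.5 TPM in KO1 (0.57 ± 0.12, adjusted p = 0.0101; 0.071 with the covariate). Egfr overlapped between the clones, at 5.50, 5.76 and 5.64 TPM in KO2 and 3.94, 9.38 and 7.38 TPM in KO1, with 17.5, 19.7 and 24.5 TPM in WT.

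Of 23 cholesterol synthesis genes 6 were higher and none lower, the median was 0.51, and 18 lay above all KO1 libraries. Srebf2, the transcription factor that drives the pathway, was the 1 member that differed in all 4 fits. It had 199.8, 193 and 167 TPM in KO2, 138, 119.5 and 108 TPM in KO1 and 217, 214 and 198 TPM in WT (0.62 ± 0.10, adjusted p = 0.00231). Sqle, an enzyme of the pathway, was 0.79 higher and did not pass with the covariate. No call was made among 25 ribosomal protein genes, and 1 among 26 respiratory chain subunits.

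Of the genes with the largest rises, several belong to no list. Adora1, an adenosine receptor, had 6.21, 6.67 and 3.19 TPM in KO2, 1.26, 0.40 and 0.41 TPM in KO1 and 1.01, 2.23 and 2.40 TPM in WT (1.90 ± 0.26, adjusted p = 0.000854). Sult1c2, a cytosolic sulfotransferase, had 42.2, 43.7 and 49.7 TPM in KO2, 25.7, 10.9 and 12.5 TPM in KO1 and 22.3, 15.02 and 22.1 TPM in WT (1.505 ± 0.30, adjusted p = 0.00718). Pcsk6, a proprotein convertase, was 1.17 ± 0.21 higher (adjusted p = 0.00376). Pcdhgb2, a gamma protocadherin on chromosome 18, had 19.04, 21.1 and 20.97 TPM in KO2, 3.43, 4.67 and 3.38 TPM in KO1 and 10.4, 7.10 and 11.7 TPM in WT (2.15 ± 0.17, adjusted p = 1.74e-05). The gamma protocadherins share their last exons, so its TPM is uncertain, and none of 12 other clustered protocadherins tested was higher. Pbp2 (1.27), which has the near-copy Pebp1, is uncertain for the same kind of reason. Mir6369, Apob, Il11, Cxcl9, Ptprf, Gm4841 and Sptssb also ranked among the 15 largest rises but did not differ in all 4 fits. Il11, a cytokine of the IL-6 family, had 19.6, 21.2 and 9.68 TPM in KO2 and 5.34, 4.53 and 4.09 TPM in KO1 (1.59 ± 0.33, adjusted p = 0.00828; 0.0694 with the covariate).

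Some genes of lactate export, glycolysis and the hypoxia response were lower in KO2, while most members of those lists did not pass. Slc16a3 encodes MCT4, the monocarboxylate transporter that exports lactate from glycolytic cells. It had 4.49, 4.602 and 25.5 TPM in KO2, 67.1, 51.6 and 51.2 TPM in KO1 and 174, 172 and 113 TPM in WT (-2.61 ± 0.44, adjusted p = 0.00289; -1.75 with the covariate, adjusted p = 0.0199). The groups do not overlap, and KO2 library 3 lies between the other KO2 libraries and KO1. Pfkp, the platelet-type phosphofructokinase, had 30.7, 28.3 and 42.3 TPM in KO2, 64.8, 71.9 and 67.8 TPM in KO1 and 74.7, 96.6 and 81.1 TPM in WT (-1.01 ± 0.14, adjusted p = 0.000854). Pgk1, a phosphoglycerate kinase, had 1267, 1215 and 1196 TPM in KO2, 1502, 1664 and 1556 TPM in KO1 and 1336, 1300.0 and 1347 TPM in WT (-0.36 ± 0.07, adjusted p = 0.00874). All 3 differed in all 4 fits. Of 18 glycolysis genes 4 were lower and none higher (median -0.16), and the fourth, Gapdh (-0.33), did not pass in all 4 fits; with the covariate 3 passed and the median was -0.09. Ldha, with a difference of -0.10, did not pass. Ldhb, the other lactate dehydrogenase subunit, was 2.39 lower on the log2 scale in a gene with at most 9.82 TPM.

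Of 19 hypoxia response genes, 5 were lower and none higher, with a median of -0.27 beside 0.07 over all genes. Adm, the vasodilator peptide adrenomedullin, had 14.7, 11.8 and 11.99 TPM in KO2, 31.6, 45.6 and 43.8 TPM in KO1 and 34.1, 52.3 and 36.4 TPM in WT (-1.57 ± 0.20, adjusted p = 0.000626). Egln1, the prolyl hydroxylase that marks hypoxia-inducible factors for degradation, had 92.7, 89.99 and 94.1 TPM in KO2, 121, 133 and 123 TPM in KO1 and 117, 131 and 129 TPM in WT (-0.44 ± 0.07, adjusted p = 0.00253). Both differed in all 4 fits, for both WT lay at the KO1 level, and with the covariate they were the 2 of the list that passed (median -0.26). Ddit4, Ak4 and P4ha2 fell by 0.68, 0.60 and 0.33 on the log2 scale and did not pass in all 4 fits. Vegfa (-0.18), Slc2a1 (-0.30) and Car9 (-0.26), other targets of the response, did not pass.

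Other genes that were lower in KO2 in all 4 fits are given here; apart from Ace, Fn1, Mgp, Id3 and Hspa1a they were picked after their values were seen. Igfbp5, which binds insulin-like growth factors, had 16.3, 17.6 and 17.97 TPM in KO2, 80.4, 90.5 and 80.3 TPM in KO1 and 25.9, 24.6 and 22.4 TPM in WT (-2.21 ± 0.16, adjusted p = 1.15e-05). Ace, the angiotensin-converting enzyme, had 31.8, 31.8 and 29.5 TPM in KO2, 111, 129 and 111 TPM in KO1 and 55.5, 85.02 and 81.95 TPM in WT (-1.88 ± 0.15, adjusted p = 1.86e-05). In both genes the KO2 libraries lie close together and far below KO1. Lbp, the lipopolysaccharide-binding protein, had 30.2, 30.8 and 34.9 TPM in KO2, 73.9, 81.7 and 84.3 TPM in KO1 and 56.6, 57.8 and 52.5 TPM in WT (-1.30 ± 0.11, adjusted p = 2.13e-05). Trf, the iron carrier transferrin, had 412, 405 and 556 TPM in KO2, 898, 1271 and 1144 TPM in KO1 and 500.5, 693 and 757 TPM in WT (-1.27 ± 0.16, adjusted p = 0.000569). Fn1, fibronectin, had 663, 666 and 825 TPM in KO2 and 946, 1724 and 1547 TPM in KO1 (-0.93 ± 0.18, adjusted p = 0.00706). Mgp, the matrix Gla protein that inhibits calcification, had 7.77, 6.32 and 49.96 TPM in KO2, 86.5, 192 and 214 TPM in KO1 and 80.3, 114 and 110.5 TPM in WT (-3.37 ± 0.56, adjusted p = 0.00261).

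Lmcd1, a LIM domain cofactor, had 0.91, 1.01 and 1.61 TPM in KO2, 11.1, 9.90 and 12.1 TPM in KO1 and 16.8, 19.9 and 13.1 TPM in WT (-2.48 ± 0.21, adjusted p = 2.13e-05). Gabrp, the pi subunit of the GABA-A receptor, had 3.48, 2.61 and 2.65 TPM in KO2, 10.2, 12.3 and 11.99 TPM in KO1 and 14.1, 13.9 and 17.7 TPM in WT (-1.68 ± 0.20, adjusted p = 0.000431). For both, every KO1 library lay below every WT library, and KO2 was far lower still. Basp1 (-1.48 ± 0.17, adjusted p = 0.00039), a membrane and nuclear corepressor protein, Serinc2 (-1.69 ± 0.19, adjusted p = 0.000208) and Wnt5a (-1.89 ± 0.34, adjusted p = 0.00424), a ligand of noncanonical WNT signalling, had their means in the same order, with KO2 lowest and WT highest. Id3, an inhibitor of helix-loop-helix factors induced by BMP signals, was 1.72, 1.21 and 4.16 TPM in KO2 and 25.7, 8.69 and 10.5 TPM in KO1. Rhox5, an X-linked homeobox gene known to be silenced by methylation in most somatic tissues, had 75.1, 78.6 and 74.6 TPM in KO2, 156, 159.8 and 167 TPM in KO1 and 11.3, 10.8 and 7.94 TPM in WT (-1.07 ± 0.12, adjusted p = 0.000337). Both clones were above WT, by 2.82 in KO2 and 3.89 in KO1 on the log2 scale. Hspa1a, an inducible heat shock protein, had 18.1, 18.3 and 16.7 TPM in KO2, 39.0, 45.3 and 53.9 TPM in KO1 and 43.0, 44.8 and 43.6 TPM in WT (-1.32 ± 0.22, adjusted p = 0.00279). It was the 1 of 23 immediate early and dissociation genes that differed in all 4 fits; 6 of the 23 were lower and none higher (median -0.43).

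Many markers of neutrophils, monocytes and fibroblasts were lower in KO2. KO2 library 3 often lay between the other KO2 libraries and KO1, and its summed fibroblast markers lay at the KO1 level. Of 12 neutrophil markers, 10 were lower and none higher, with a median of -2.09, and Mmp9, Il1b, G0s2 and Mmp8 differed in all 4 fits. Il1b, the inflammatory cytokine interleukin 1 beta, had 12.3, 13.8 and 16.8 TPM in KO2, 82.1, 54.9 and 68.9 TPM in KO1 and 6.75, 6.32 and 6.58 TPM in WT (-2.18 ± 0.24, adjusted p = 0.000237). KO2 library 3 lies with the other KO2 libraries here, unlike in the macrophage genes. Mmp9, a gelatinase, had 9.04, 9.03 and 29.1 TPM in KO2, 73.5, 112 and 128 TPM in KO1 and 8.25, 13.3 and 9.07 TPM in WT (-2.83 ± 0.35, adjusted p = 0.000459). S100a9, a calprotectin subunit, had 8.65, 7.70 and 11.9 TPM in KO2 and 38.4, 98.6 and 99.0 TPM in KO1 (-2.83 ± 0.56, adjusted p = 0.00695; 0.0647 with the covariate). The neutrophil markers summed to 58.6 to 108 TPM in KO2, 346 to 480.4 TPM in KO1 and 32.6 to 41.4 TPM in WT, and 1 of their 16 genes was listed at 0 in every KO2 library.

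Macrophage markers were lower in 2 of the 3 KO2 libraries only. They summed to 877, 882 and 6416 TPM in KO2, 11210, 6363 and 7483 TPM in KO1 and 404 to 3764 TPM in WT. Of 24 tested markers 1 was lower, and the median of -2.26 became -0.01 with the covariate. All 10 genes of the index that serves as covariate are among these 24, so that change was largely set in advance. The 1 lower marker was Cd14, itself a gene of the index, which other cells express too. It had 136, 137 and 147 TPM in KO2 and 284, 200.2 and 218 TPM in KO1. Of 12 monocyte markers 8 were lower, and Chil3 and Ace differed in all 4 fits. Of 11 T and NK cell markers 5 were lower. Gzma, a granzyme, had 0.75, 0.45 and 0.88 TPM in KO2 and 5.49, 4.43 and 4.51 TPM in KO1, and was listed at 0 in WT (-1.78 ± 0.18, adjusted p = 7.49e-05). Gzmc, another granzyme, had 0.78, 0.21 and 1.27 TPM in KO2 and 6.62, 14.7 and 15.5 TPM in KO1 (-2.88 ± 0.28, adjusted p = 7.29e-05). Rnase2a, an eosinophil-associated ribonuclease of a multigene family and so uncertain, had 1.51, 1.44 and 10.2 TPM in KO2 and 37.8, 62.8 and 65.2 TPM in KO1 (-3.74 ± 0.46, adjusted p = 0.000431). All 3 differed in all 4 fits.

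Of 21 fibroblast markers, 12 were lower and Dcn alone differed in all 4 fits. Only 7 lay below all KO1 libraries, beside 13.8% of all genes. The markers summed to 467, 443 and 1381 TPM in KO2 libraries 1, 2 and 3. The sums were 1695, 1230 and 1161 TPM in KO1 and 405 to 566 TPM in WT, so KO2 library 3 lay within the KO1 range. Dcn, the collagen-binding proteoglycan decorin, had 4.33, 4.32 and 20.04 TPM in KO2 and 44.1, 45.5 and 45.4 TPM in KO1 (-2.45 ± 0.39, adjusted p = 0.00192). Of 17 endothelial markers 6 were lower, and none differed in all 4 fits; the sums were 89.4 to 94.6 TPM in KO2, 103 to 496.1 TPM in KO1 and 97.2 to 102 TPM in WT. Of 23 chemokines and colony-stimulating factors 6 were lower and 1 was higher, with a median of -1.11. Cxcl16 differed in all 4 fits, with 55.5, 57.8 and 77.5 TPM in KO2 and 92.3, 111 and 117 TPM in KO1 (-0.75 ± 0.14, adjusted p = 0.00429). Ccl3, which attracts monocytes, had 3.34, 3.92 and 10.5 TPM in KO2 and 41.5, 38.9 and 36.1 TPM in KO1 (-2.67 ± 0.56, adjusted p = 0.00924) and lost its call without KO2 library 1 or 2. The higher one, Cx3cl1, had 79.1, 75.3 and 70.0 TPM in KO2 and 61.3, 56.3 and 52.99 TPM in KO1 (0.39 ± 0.09, adjusted p = 0.013). The part of immune and stromal cells in the other falls was not tested beyond the covariate; Hp, Crabp1, Car4 and Snord68, the last a small nucleolar RNA within another gene and uncertain, were the further large falls in all 4 fits, and Mir142b, Mir212, Gm7334, Mgl2 and Ear2 ranked among the 15 largest falls without passing in all 4.

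Where WT stood differed from gene to gene. Of the 136 genes higher in KO2 in all 4 fits, the WT mean lay on the KO2 side of the midpoint for 84 and on the KO1 side for 52. Of the 134 lower genes, it lay on the KO2 side for 82 and on the KO1 side for 52. KO1 differed from WT (adjusted p under 0.05) in 101 of the higher and 91 of the lower genes, and KO2 in 55 and 61. These comparisons share the same KO2, KO1 and WT libraries, so the counts describe the 3 groups and are not independent of each other. The shares over all genes are not given for these comparisons, so the counts do not show which clone lies further from WT. Slc16a3, Lmcd1, Gabrp, Adm and the 2 mucins are genes in which KO2 departs from WT more than KO1 does. Igfbp5, Fblim1, Vil1, Foxm1 and Srebf2 are genes in which KO1 does. Fblim1, a filamin-binding adhesion protein, had 84.0, 79.2 and 70.6 TPM in KO2, 37.9, 39.8 and 38.7 TPM in KO1 and 94.3, 74.2 and 83.6 TPM in WT (0.99 ± 0.09, adjusted p = 4.06e-05).

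**Figure D4:**
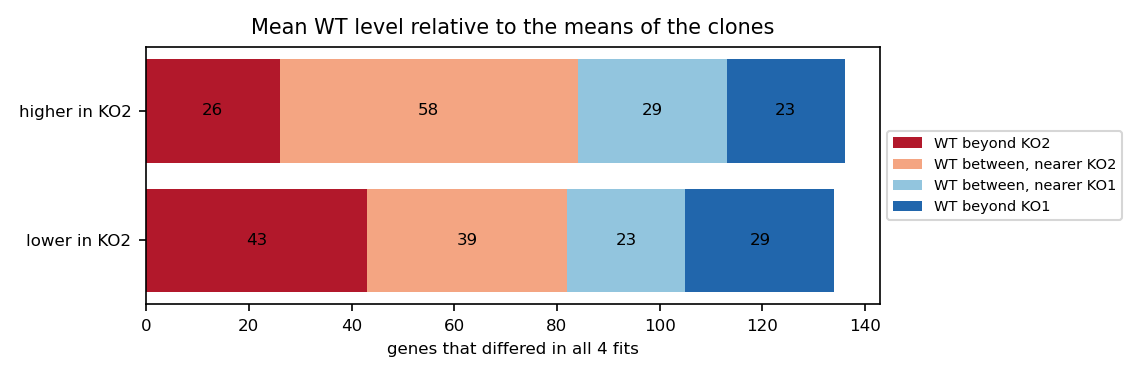
Number of genes that differed between KO2 and KO1 in all 4 fits, by where the mean WT level lies relative to the means of the clones; the upper bar holds the 136 genes higher in KO2, the lower bar the 134 genes lower in KO2. WT lies nearer to or beyond KO2 in 84 and 82 of them.

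The difference was uneven over the chromosomes. The median difference over all genes was 0.07, and chromosome 18 stood above it at 0.27, while chromosomes 8 and 11 lay below 0, both at -0.09. On chromosome 18, 50 of 333 genes were higher and 9 lower, and 50.8% of its genes lay above all KO1 libraries, against 25.3% of all genes. In all 4 fits only 6 of the 333 were higher and 5 lower, beside 1.03% and 1.01% of all genes. The excess of rises was thus not kept in that set. Each KO2 library showed the raised median: against the KO1 mean it was 0.28, 0.30 and 0.17 in KO2 libraries 1, 2 and 3. All 5 segments of 20 Mb along chromosome 18 ranked among the 10 highest of 137, with medians of 0.21 to 0.32. Against WT the median of chromosome 18 was 0.32 in KO2 and 0.08 in KO1, beside 0.19 and 0.13 over all genes. With the covariate its median between the clones was 0.08, as was that of chromosome 19, when that of all genes was -0.00. The called genes with the largest rise there were Pcdhgb2, Gm4841 (1.36) and Arap3, a GTPase-activating protein (1.09). Gata6 is also on this chromosome.

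On chromosome 11, 25 of 1115 genes (2.24%) were higher and 85 (7.62%) lower, beside 5.49% and 4.61% of all genes. On chromosome 8, 15 of 735 (2.04%) were higher and 44 (5.99%) lower. In all 4 fits 3 of 1115 were higher and 13 lower on chromosome 11, and 1 of 735 was higher and 9 were lower on chromosome 8. Over all genes 1.03% were higher and 1.01% lower in all 4 fits, so the falls on these chromosomes were near that share. All 7 segments of 20 Mb on each had a median below 0, and 5 on chromosome 11 and 4 on chromosome 8 were among the 10 lowest of the 137. The per-library medians of KO2 were -0.08, -0.06 and -0.12 on chromosome 11 and -0.07, -0.06 and -0.12 on chromosome 8. Against WT the medians of both clones were above 0, as were those over all genes (0.19 in KO2 and 0.13 in KO1). They were 0.10 in KO2 and 0.20 in KO1 on chromosome 11, and 0.11 in KO2 and 0.18 in KO1 on chromosome 8. On both chromosomes KO2 thus lay below its median over all genes, and KO1 above its own. The largest called falls were Mir142b, Mir212 and Car4 on chromosome 11 and Snord68, Hp and Ednra, an endothelin receptor (-2.18), on chromosome 8. The signs for chromosomes 18, 8 and 11 were the same in every setting tried, median-of-ratios and quantile scaling included. They were not particular to these chromosomes, as with the covariate several others also fell below 0. Chromosome X then had the lowest median, at -0.17 beside -0.12 on chromosomes 8 and 11.

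**Figure D5:**
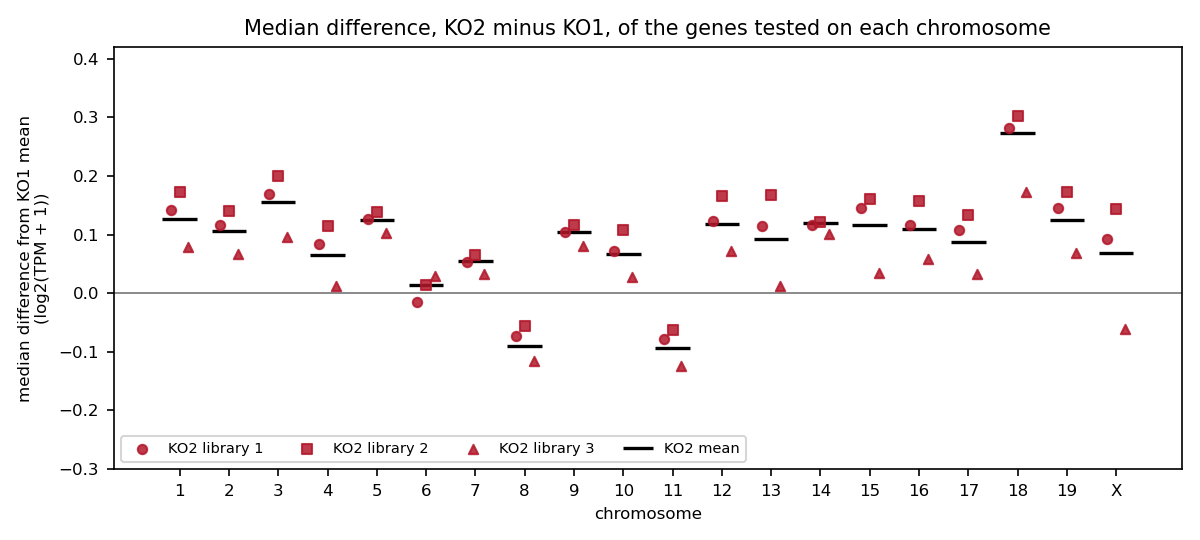
Median difference in log2(TPM + 1) from the KO1 mean over the genes tested on each chromosome; points are the 3 KO2 libraries and black lines the KO2 mean minus the KO1 mean. By the black lines chromosome 18 lies highest (0.27) and chromosomes 8 and 11 lie below 0; single libraries of chromosomes 6 and X also fall below 0.

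The other line of the series, 6419c5, also has a KO2 and a KO1 clone with 3 libraries each; the clone numbers do not tie a clone of one line to a clone of the other. There, 3562 of 13221 genes (26.9%) differed, 7.62% higher and 19.3% lower in KO2, and its KO2 libraries were also the ones low in macrophage genes (index 3.32 to 3.90, against 6.18 to 7.99 in its KO1). Of the 136 genes higher in 6694c2 KO2, 131 were tested in 6419c5, where 37 were higher and 16 lower in KO2. Of the 134 lower genes, 106 were tested, where 50 were lower and 11 higher. Some genes named above, picked after their values were seen, went the same way in both lines. Slc16a3 had 4.33, 2.83 and 5.08 TPM in 6419c5 KO2, against 53.2, 71.3 and 58.4 TPM in 6419c5 KO1 (-3.62, adjusted p = 5.37e-05), Tff2 differed by 3.03 (adjusted p = 2.23e-06) and Adm by -1.30 (adjusted p = 0.000408). Gbp4 went the other way, with 9.59, 13.01 and 13.3 TPM in 6419c5 KO2 and 24.8, 26.9 and 26.6 TPM in 6419c5 KO1 (-1.08, adjusted p = 0.000826), as did Gbp7 (-1.04, adjusted p = 0.000266). Ccnd1, Ace and Rhox5 (adjusted p = 0.231, 0.626 and 0.456) did not pass there. The median difference on chromosome 18 was 0.40 in 6419c5, and -0.22 on chromosome 8, -0.09 on chromosome 11 and -0.05 over all genes. Chromosomes 1 and 10 were lower than those there, at -0.43 and -0.28, while in 6694c2 they were above 0, at 0.13 and 0.07.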

How the data were processed

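RNA-seq of sorted tumor cells was deposited by the authors as TPM (transcript abundance scaled to one total) for 24493 gene symbols in 18 libraries. Quantification used Salmon and mm10, per the submitters' processing notes; the Salmon version and annotation are not given in the sources used here. Every column has the same sum, so read depth is unknown and no count model or counting interval was used. Columns carry the clone as a letter, and B was read as clone 2 and A as clone 1. Symbols were placed on chromosomes with GENCODE M21 (GRCm38; 97.7% matched).

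Values were analysed as log2(TPM + 1), so fold changes of low genes are understated. limma 3.58.1 (R 4.3.3) fitted 6 group means with a mean-variance trend over 18 libraries (12 residual degrees of freedom), keeping genes that averaged 1 TPM or more over the 6 libraries compared, with Benjamini-Hochberg adjustment over all of them. Adjusted p-values are from limma throughout. On simulated data with 13264 genes the fit recovered 69% of 2-fold and 88% of 4-fold changes, with 3.7% false calls. The simulated noise was independent between genes and libraries. It held no shift in other cell types and no library that stood apart, so these rates need not hold for the real libraries. The members, the gene lists and the tests were chosen with earlier results of these data known. Named genes are the 15 largest called changes in each direction with at least 5 TPM in the higher clone and no overlap between the clones, the 10 largest that also passed with the macrophage index and without the 2 libraries that stood apart, Kdm3a, up to 5 genes per list, and up to 3 per chromosome described. Genes outside this rule were chosen after their values were seen: Anks4b, Aurka, Aurkb, Basp1, Bub1b, Car9, Cdc20, Cdc45, Cx3cl1, Cxcl16, Egfr, Fblim1, Foxm1, G0s2, Gabrp, Gata5, Gata6, Gbp3, Gbp7, H2-K1, Hhex, Hnf4a, Igfbp5, Igtp, Irf1, Irf8, Irgm2, Lbp, Ldha, Ldhb, Lmcd1, Mmp8, Mst1r, Pdx1, Pebp1, Plk1, Rhox5, Serinc2, Slc2a1, Socs1, Tff1, Tgtp2, Trf, Ubd, Vegfa, Vil1 and Wnt5a. Alternatives covered scaling, pseudocount, filter, samples fitted, covariates and single libraries left out. Promoters (250 bases before to 50 after the start) are from RefSeq, GRCm38.p6.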

Additional observations from a re-analysis of the deposited data

How the results depend on the processing

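Against 1339 genes called (728 higher and 611 lower in KO2), 550 (285 and 265) passed with the 9 libraries of 6694c2 alone, 352 (177 and 175) with the macrophage index added, and 392 (203 and 189) with KO2 libraries 1 and 2 counted as 1. Leaving out 1 library gave 394 to 1969 genes (199 to 865 higher, 194 to 1104 lower). With a minimum of 5 TPM 330 genes were lower. In the other settings the number called was 965 to 1653, within 1.5 times the value given. With the replicate block 863 passed (458 and 405); equal replicate numbers do not pair the libraries (r = -0.20, 0.16 and -0.22 for numbers 1, 2 and 3). In 6419c5, 1266 passed with the covariate and 2414 to 3515 without 1 library, against 3562. The difference of Kdm3a, which did not pass in any setting, turned to -0.034 with median-of-ratios scaling, -0.047 with quantile normalization, -0.19 with the covariate and -0.0081 with KO2 libraries 1 and 2 counted as 1, and was -0.025 to 0.10 without 1 library. That of Egfr turned to 0.044 without KO1 library 2 (lowest without 1 library, -0.49). The median of chromosome 18 was 0.21 with median-of-ratios scaling, 0.081 with the covariate and 0.23 to 0.30 without 1 library. That of chromosome 11 was -0.15 with median-of-ratios scaling, -0.060 without both libraries that stood apart and -0.11 to -0.07 without 1 library. That of chromosome 8 was -0.15, -0.055 and -0.10 to -0.07 in the same settings and -0.12 with the covariate. The difference in the macrophage index was -2.92 to -1.59 without 1 library. The cause of these shifts was not tested. Scalings moved the median of all genes by less than 0.1. Read depth is unknown, so the counting error of low genes is too.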

Other observations

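Some genes of other groups also separated the clones. Cfb, the complement factor B protease, had 215, 208 and 211 TPM in KO2, 153, 102 and 105 TPM in KO1 and 97.4, 130.5 and 100.8 TPM in WT, and differed in all 4 limma fits (0.84 ± 0.15, adjusted p = 0.00363). C3, the central complement protein, went the other way, with 89.0, 86.0 and 161 TPM in KO2 and 212, 248.8 and 215 TPM in KO1, but its call (-1.06, adjusted p = 0.0334) was lost with the covariate and without any 1 of KO2 libraries 1 and 2 or of the KO1 libraries. Tgfb2, a transforming growth factor ligand, had 0.45, 0.48 and 0.88 TPM in KO2, 2.38, 3.36 and 2.52 TPM in KO1 and 2.09, 1.77 and 3.45 TPM in WT (-1.23 ± 0.20, adjusted p = 0.00251, in all 4 fits). Of 21 genes of the TGF-beta pathway 1 was higher and 3 were lower in KO2, with a median of -0.06 beside 0.07 over all genes. Of 13 fatty acid synthesis genes 3 were higher and none lower (Scd2, Fads1 and Fads2), and of 15 YAP and TEAD target genes 3 were higher and none lower (Ajuba, Axl and Tead1); none of these 6 differed in all 4 fits.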
